A study of Mus musculus with 2 samples.

Results

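Complement components and regulators were followed through 9 mouse genes: C1qa, C1qb and C1qc, C3, Cfp, Cfb, Cfd, Cd55 and Cd59a. They were chosen by gene symbol, and all 9 were found among the 46095 entries of the count table. RNA was sequenced from acute myeloid leukaemia cells that had been sorted from bone marrow for Mac1 (an integrin with the Itgam product as subunit) and the receptor KIT, and that the labels call leukaemia-initiating. There were 2 libraries, 1 with the genotype P2x1-KO, here P2X1-KO, and 1 with the genotype wild type, here WT. Both came from C57BL/6 mice with an age of 8 weeks. The protocol text gives P2X1-KD and P2X1-Scr as further names of the same groups, which reads as a knockdown and a scrambled control, and no choice between the wordings was made. How the leukaemia was induced, how P2X1 was removed, and whether animals were pooled are details not given in the sources used here.

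Complement is a system of proteins that marks particles for uptake by phagocytes, attracts leukocytes and can perforate membranes. The classical pathway starts when C1q, assembled from A, B and C chains, binds antibody or a surface. The alternative pathway builds on C3 with factor B and factor D, and is stabilised by properdin, the product of Cfp. CD55 speeds the decay of the enzyme complexes that cleave C3, and CD59 blocks the membrane attack pore. The liver makes most plasma complement, whereas C1q is made largely by macrophages and dendritic cells, properdin largely by myeloid cells, and factor D largely by adipocytes.

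The P2X1-KO-labelled library held 9447894 counts and the WT-labelled library 14658620. P2rx1, which encodes P2X1, had 45 counts in the P2X1-KO-labelled library and 27 counts in the WT-labelled library, 2.93-fold higher by CPM (95% interval 1.78 to 4.90). The targeted transcript thus went against the label, though counts per gene cannot show whether P2X1 was lost. Each direction below compares the P2X1-KO-labelled library with the WT-labelled library and is not read as loss of P2X1 against its presence. The sort markers were present in both libraries, with Itgam at 504 CPM and Kit at 19.9 CPM in the P2X1-KO-labelled library, against 307 and 13.3 CPM in the WT-labelled library. CPM are counts scaled to a common library size with the TMM method (trimmed mean of M values). With 1 library per group there is no replicate error and no p-value. The 95% intervals are exact and cover counting error only. A count of 0 allows up to 3 counts, which is 0.338 CPM in the P2X1-KO-labelled library and 0.192 CPM in the WT-labelled library.

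The 9 genes fell into 4 patterns. The C1q chains were close to the detection limit in the WT-labelled library and clearly present in the P2X1-KO-labelled library. Properdin and C3 were abundant in both, with Cfp 2.51-fold higher in the P2X1-KO-labelled library and C3 within 2-fold. Cd59a was the 1 member with a lower level there beyond counting error. Cfb, Cfd and Cd55 had between 0 and 8 counts in either library.

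**Figure D1:**
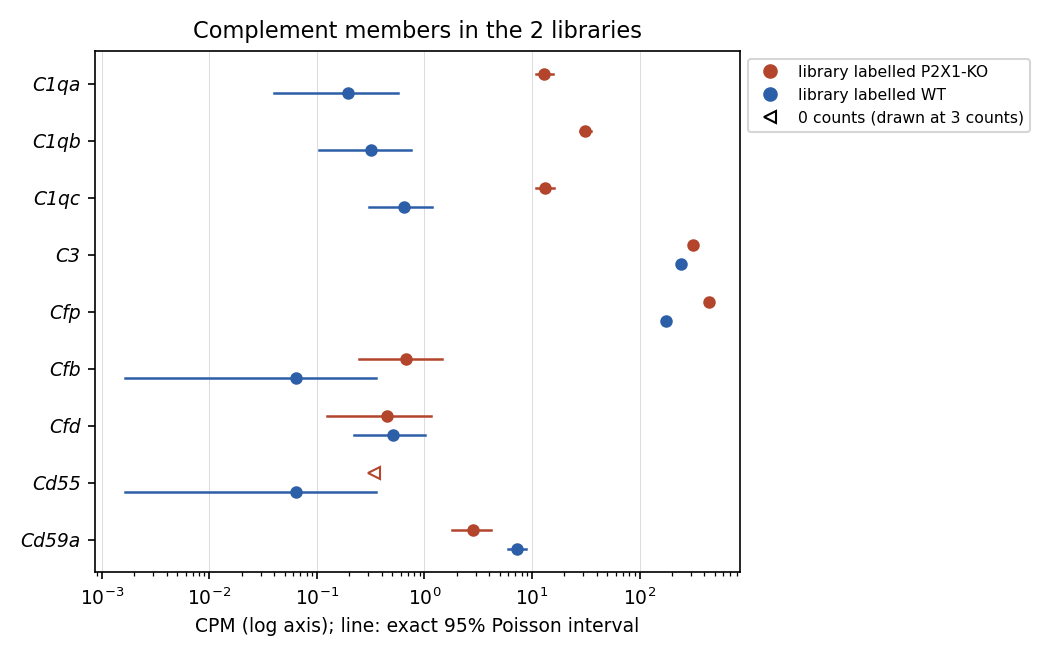
CPM on a log axis of the 9 complement genes in the P2X1-KO-labelled library (red, upper point of each pair) and the WT-labelled library (blue), with exact 95% Poisson intervals as lines and a count of 0 drawn as an open triangle at 3 counts. The C1q chains lie at 13.1 to 31.3 CPM in the P2X1-KO-labelled library and at 0.192 to 0.641 CPM in the WT-labelled library, and Cfp and C3 are the most abundant in both.

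The mean CPM of both libraries was 5 or more for 6 of the 9 genes. Of these 6, 4 were at least 2-fold higher in the P2X1-KO-labelled library, namely the C1q chains and Cfp, and 1, Cd59a, was at least 2-fold lower. Among all 10483 genes at that level, 12.1% were higher by that measure and 10.6% lower. The C1q chains passed the level through the P2X1-KO-labelled library alone, and Cd59a through the WT-labelled library alone. These members thus had to differ in the direction seen, and the count of members passing is a description. The whole interval lay beyond 2-fold for the C1q chains and for Cfp, against 9.37% of all genes in that direction. For Cd59a it did not, whereas 6.21% of all genes had their whole interval at least 2-fold lower. The median log2 difference, computed on log2(CPM + 0.5), was 2.46 over the 6 genes and -0.08 over all genes at that level. The C1q chains and Cd59a entered that median through 1 library each, so it too is a description. Over all 9 members, with no level set, the median was 1.06. That is the value of Cfb, which had 6 counts in the P2X1-KO-labelled library and 1 count in the WT-labelled library.

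**Figure D2:**
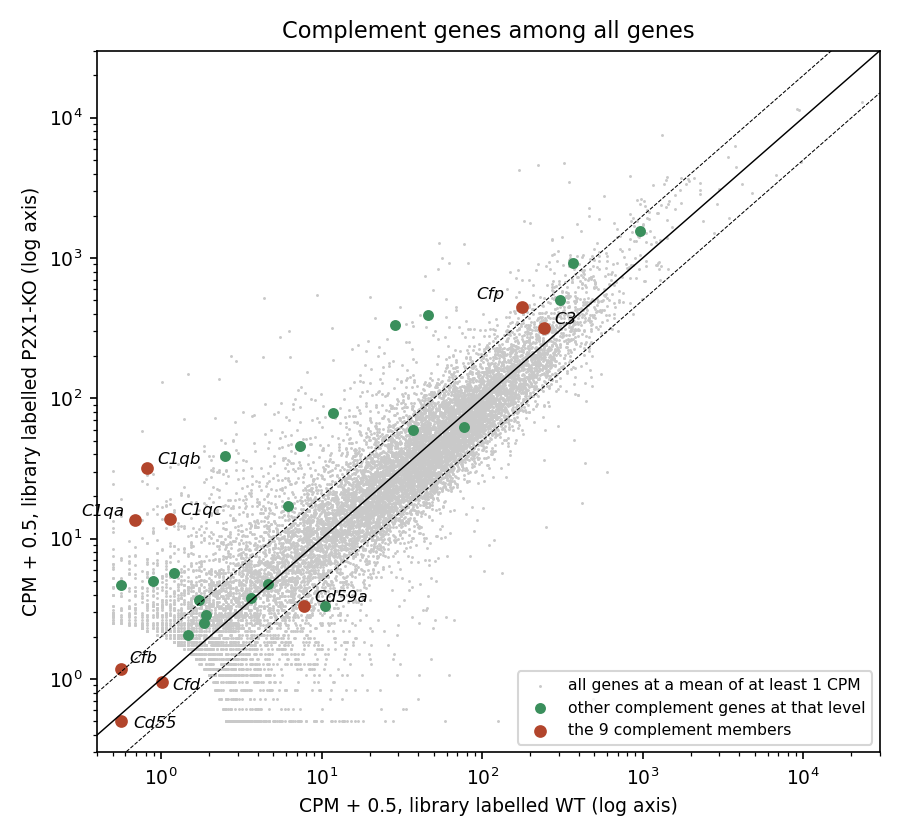
CPM + 0.5 of each gene in the P2X1-KO-labelled library (vertical, log axis) against the WT-labelled library (horizontal, log axis). Grey points are all genes whose mean was 1 CPM or more, green points the other complement genes at that level, red points the 9 members, the solid line equality and the dashed lines 2-fold. The C1q chains stand far above the dashed line, Cfp just above it and C3 inside the band.

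C1qa, C1qb and C1qc encode the A, B and C chains of C1q, the recognition molecule of the classical pathway. C1qa had 116 counts (95% interval 95.9 to 139) in the P2X1-KO-labelled library and 3 counts (0.619 to 8.77) in the WT-labelled library. C1qb had 278 counts (246 to 313) in the P2X1-KO-labelled library and 5 counts (1.62 to 11.7) in the WT-labelled library. C1qc had 118 counts (97.7 to 141) in the P2X1-KO-labelled library and 10 counts (4.80 to 18.4) in the WT-labelled library. The lower counts of these chains came from the WT-labelled library, although it was the deeper.

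By CPM, C1qb was 97.6-fold higher in the P2X1-KO-labelled library (41.3 to 303). The ratio was 67.9 for C1qa (22.7 to 334), which rests on 3 counts in the WT-labelled library, and 20.7 for C1qc (10.9 to 44.3). Summed over the chains, C1q stood at 57.6 CPM in the P2X1-KO-labelled library and 1.15 CPM in the WT-labelled library, 49.9-fold higher (31.3 to 84.9). On the log2(CPM + 0.5) scale the differences were 4.29 for C1qa, 5.28 for C1qb and 3.59 for C1qc. Of the 10483 genes at that level, 14 had a larger difference than C1qb, 45 than C1qa and 117 than C1qc.

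The chains also differed among themselves in their shares of the C1q counts. C1qb took 54.3% of 512 counts in the P2X1-KO-labelled library (exact 95% interval 49.9 to 58.7) and 27.8% of 18 counts in the WT-labelled library (9.69 to 53.5). C1qa took 22.7% (19.1 to 26.5) in the P2X1-KO-labelled library and 16.7% (3.58 to 41.4) in the WT-labelled library. The C1qc share was 23.0% (19.5 to 26.9) in the P2X1-KO-labelled library and 55.6% (30.8 to 78.5) in the WT-labelled library, and here alone the intervals did not overlap. Per kilobase of exon, C1qb took 59.7% in the P2X1-KO-labelled library and 36.3% in the WT-labelled library. The share of C1qc depended on its length, which is 1931 bases over all annotated exons and 1203 in its coding transcript. It was 14.3% with the first length and 21.1% with the second in the P2X1-KO-labelled library, and 40.9% and 52.6% in the WT-labelled library.

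**Figure D3:**
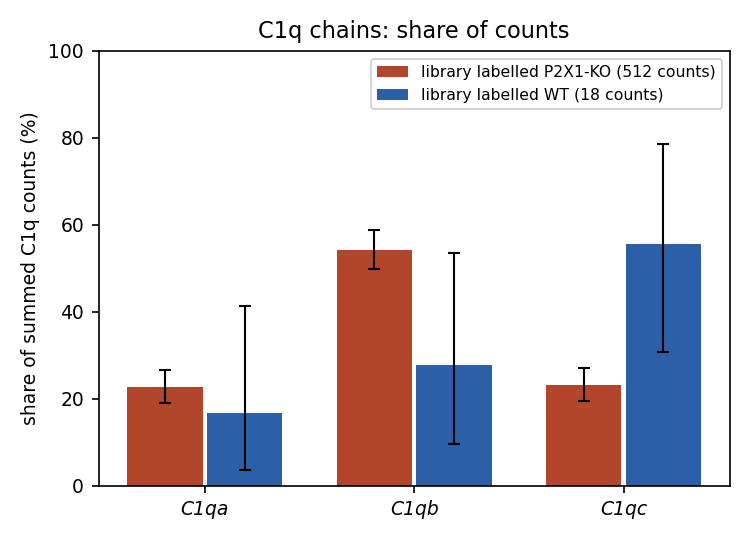
Share (%) of the summed C1qa, C1qb and C1qc counts taken by each chain in the P2X1-KO-labelled library (red, left bar of each pair) and the WT-labelled library (blue), with exact 95% binomial intervals. C1qb leads in the P2X1-KO-labelled library at 54.3% of 512 counts and C1qc in the WT-labelled library at 55.6% of 18 counts, where the intervals are wide.

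The chain genes lie side by side on the minus strand of chromosome 4 (mm10), with C1qb at chr4:136880129-136886187, C1qc at chr4:136889804-136893065 and C1qa at chr4:136895917-136898803. No other annotated gene overlaps any of them. The gaps are 3616 bases between C1qb and C1qc and 2851 bases between C1qc and C1qa. The next coding genes outward did not share the level of the cluster. Ephb2, an ephrin receptor gene beyond C1qb, had 0 counts in the P2X1-KO-labelled library and 6 counts in the WT-labelled library. Epha8, of the same receptor family and beyond C1qa, had 0 counts in both libraries.

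Upstream sequences were held for 7 of the 9 genes in the RefSeq table of 250 bases before to 50 after each gene's start (GRCm38.p6, the assembly of mm10), and not for C1qa and Cfb. Those of C1qb and C1qc are printed because the chains stood higher together in the P2X1-KO-labelled library. Capitals mark matches on either strand to GAGGAA, a core of sites of the myeloid factor PU.1. The windows are chr4:136886151-136886450 for C1qb and chr4:136892865-136893164 for C1qc, both on the minus strand and written 5′ to 3′.
C1qb: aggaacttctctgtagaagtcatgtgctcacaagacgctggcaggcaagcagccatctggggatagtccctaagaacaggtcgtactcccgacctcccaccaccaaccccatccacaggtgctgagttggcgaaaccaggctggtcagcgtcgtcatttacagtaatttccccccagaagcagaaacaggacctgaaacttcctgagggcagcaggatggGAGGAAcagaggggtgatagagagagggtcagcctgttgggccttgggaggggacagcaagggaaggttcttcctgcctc
C1qc: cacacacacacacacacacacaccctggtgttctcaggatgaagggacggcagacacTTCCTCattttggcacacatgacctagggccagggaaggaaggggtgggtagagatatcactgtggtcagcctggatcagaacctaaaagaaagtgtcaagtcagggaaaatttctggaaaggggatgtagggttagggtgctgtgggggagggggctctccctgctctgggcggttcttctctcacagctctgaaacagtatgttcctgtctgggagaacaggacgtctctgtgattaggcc
The C1qb window holds GAGGAA at bases -30 to -25 before the start. The C1qc window holds GAGGAA on the opposite strand, at -193 to -188. Of 32851 windows of the same length, 28.3% hold GAGGAA, so a match is common and serves as description. GENCODE places the start 13 bases away for C1qb and 151 bases away for C1qc, so the C1qc window depends on the annotation.

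Macrophages are a textbook source of C1q, and genes of that lineage stood higher in the P2X1-KO-labelled library, as did genes of other lineages. Of 13 macrophage markers, 7 reached a mean of 1 CPM and all 7 were at least 2-fold higher, against 15.5% of the 13382 genes at that level. Marco and Axl, 2 of the 7, reached it through the P2X1-KO-labelled library alone. The list summed to 1037 CPM in the P2X1-KO-labelled library and 197 CPM in the WT-labelled library. Csf1r, the receptor for macrophage colony-stimulating factor, had 395 CPM in the P2X1-KO-labelled library and 40.7 CPM in the WT-labelled library. Marco, a scavenger receptor, had 124 counts in the P2X1-KO-labelled library and 1 count in the WT-labelled library. Mertk, a receptor for uptake of dying cells, had 149 counts in the P2X1-KO-labelled library and 22 counts in the WT-labelled library, and Adgre1, a macrophage surface receptor, had 1199 counts in the P2X1-KO-labelled library and 575 counts in the WT-labelled library. Below the level, Spic, a transcription factor of red pulp macrophages, had 7 counts in the P2X1-KO-labelled library and 1 count in the WT-labelled library. The other list members below it were at or near 0. Vsig4 and Timd4 had 0 counts in both libraries. Mrc1 and Cd163 had 0 counts in the P2X1-KO-labelled library and 3 and 6 counts in the WT-labelled library. Cd5l had 1 count in the P2X1-KO-labelled library and 2 counts in the WT-labelled library. Of 5 markers of dendritic cells, which also make C1q, 1 reached a mean of 1 CPM and was within 2-fold. That list summed to 49.5 CPM in the P2X1-KO-labelled library and 72.2 CPM in the WT-labelled library. Nearly all of it was Flt3, at 47.4 CPM in the P2X1-KO-labelled library and 72.0 CPM in the WT-labelled library. Below the level, Cd209a had 15 counts in the P2X1-KO-labelled library and 0 counts in the WT-labelled library. Zbtb46 had 4 and 1 counts in that order, Xcr1 0 and 2, and Siglech 0 in both.

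All 6 monocyte genes reached the level of 1 CPM and 5 were at least 2-fold higher, against the same 15.5% of all genes, with a sum of 2706 CPM in the P2X1-KO-labelled library and 810 CPM in the WT-labelled library. Ly6c2, a surface marker of classical monocytes, was level, at 497 CPM in the P2X1-KO-labelled library and 546 CPM in the WT-labelled library. Lists of lineages that are not known for C1q also stood higher. Of 4 genes of eosinophils, mast cells and basophils at the level of 1 CPM, 3 were at least 2-fold higher, and the list summed to 225 CPM in the P2X1-KO-labelled library and 40.2 CPM in the WT-labelled library. Prg2, an eosinophil granule gene, had 1149 counts in the P2X1-KO-labelled library and 8 counts in the WT-labelled library. It and Cpa3, 2 of the 3, reached the level through the P2X1-KO-labelled library alone. Mcpt8, the other gene at that level, was lower within 2-fold, at 23.0 CPM in the P2X1-KO-labelled library and 34.0 CPM in the WT-labelled library. Of 4 genes of fibroblasts and stroma at that level, 3 were at least 2-fold higher, and the list summed to 250.2 CPM in the P2X1-KO-labelled library and 95.1 CPM in the WT-labelled library. Col1a1, a fibrillar collagen gene, had 1327 counts in the P2X1-KO-labelled library and 15 counts in the WT-labelled library, while the stromal genes Dcn and Lum had 0 counts in both. Col1a1, Col1a2 and Col3a1, the 3 that were higher, reached the level through the P2X1-KO-labelled library alone, and Pdgfrb, the other one, was at 47.1 CPM in the P2X1-KO-labelled library and 93.1 CPM in the WT-labelled library. The part of any of these cells in the C1q difference was not tested. In sorted bulk cells, more cells of a type and more RNA per cell cannot be told apart.

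**Figure D4:**
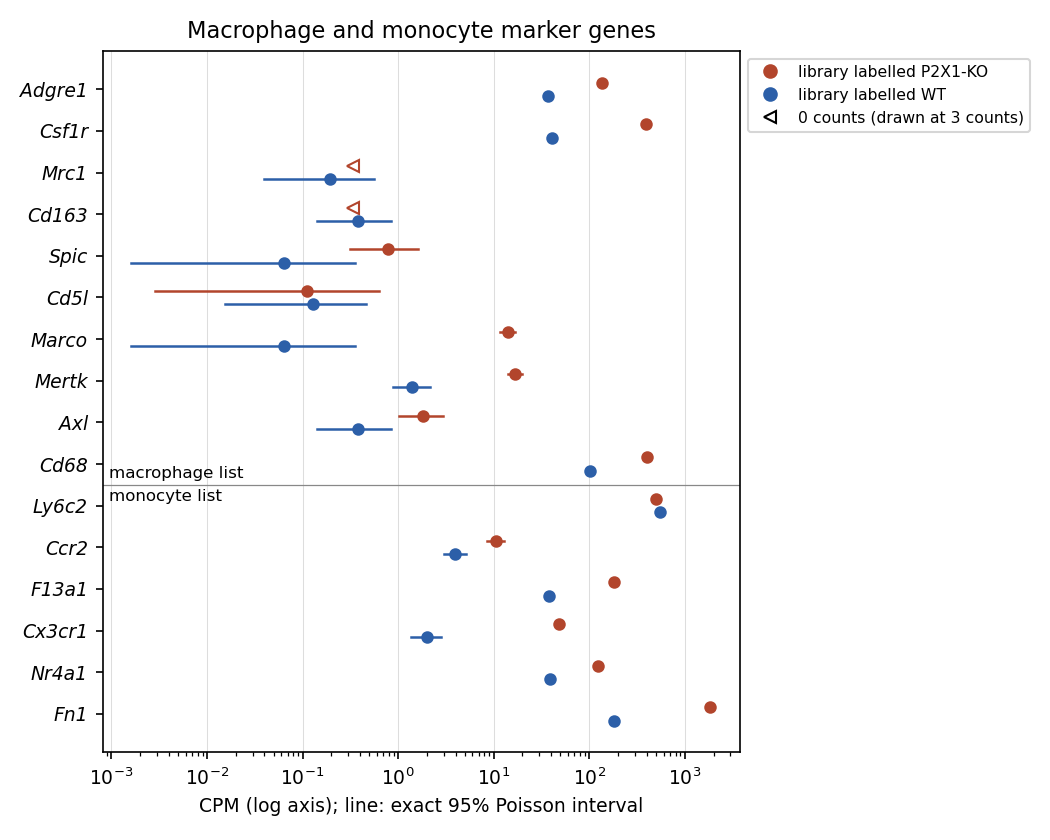
CPM on a log axis of the macrophage and monocyte marker genes shown, in the P2X1-KO-labelled library (red, upper point of each pair) and the WT-labelled library (blue), with exact 95% Poisson intervals and a count of 0 drawn as an open triangle at 3 counts. Csf1r, Marco and Cd68 lie well to the right in the P2X1-KO-labelled library, while Mrc1, Cd163 and Cd5l stay at 6 counts or fewer in both.

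C3 encodes the protein on which all complement pathways converge. It had 2811 counts in the P2X1-KO-labelled library and 3763 counts in the WT-labelled library, which is 316 CPM in the P2X1-KO-labelled library and 241 CPM in the WT-labelled library. The ratio was 1.31 (1.25 to 1.38), a difference beyond counting error but inside 2-fold. It was 1.16 when total counts set the scale in place of TMM. Relative to the median of all genes at the level of 5 CPM, the log2 difference of C3 was 0.47 with either scaling. A change of scaling moves all genes nearly alike, so this value had to stay and is no check on the ratio. Its neighbours Gpr108 and Tnfsf14 were level, at 111 and 16.8 CPM in the P2X1-KO-labelled library and 111 and 16.5 CPM in the WT-labelled library.

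Cfp encodes properdin, the positive regulator that stabilises the alternative pathway enzyme on surfaces. Its counts were 3943 in the P2X1-KO-labelled library and 2753 in the WT-labelled library, which is 444 CPM in the P2X1-KO-labelled library and 177 CPM in the WT-labelled library. The ratio was 2.51 (2.39 to 2.64), and 2.22 with total counts. Of the 10483 genes at the level of 5 CPM, 824 had a larger log2 difference than the 1.33 of Cfp. Cfp lies at chrX:20925454-20931555 on the minus strand. Elk1, the next gene at 1839 bases, went the other way, with 5.97 CPM in the P2X1-KO-labelled library and 11.9 CPM in the WT-labelled library. Neutrophil genes, a lineage that stores properdin, summed to 12507 CPM in the P2X1-KO-labelled library and 3184 CPM in the WT-labelled library, with 8 of 9 at least 2-fold higher, against 15.5% of all genes at the level of 1 CPM. The exception was Ly6g, a surface marker of neutrophils, with 36 counts in the P2X1-KO-labelled library and 109 counts in the WT-labelled library, 1.72-fold lower (1.17 to 2.59). The part of neutrophils in the Cfp level was not tested.

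Upstream windows of C3 and Cfp are printed for comparison, as the members that were abundant in both libraries. They span chr17:57228087-57228386 for C3 and chrX:20931506-20931805 for Cfp, both on the minus strand. Capitals mark the same motif and TTGCNNAA, a core of C/EBP sites.
C3: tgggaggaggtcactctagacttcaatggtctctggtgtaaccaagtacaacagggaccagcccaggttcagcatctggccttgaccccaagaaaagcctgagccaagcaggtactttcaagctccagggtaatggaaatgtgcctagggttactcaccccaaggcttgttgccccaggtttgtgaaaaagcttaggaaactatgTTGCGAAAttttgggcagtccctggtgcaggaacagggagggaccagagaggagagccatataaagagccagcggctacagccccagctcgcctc
Cfp: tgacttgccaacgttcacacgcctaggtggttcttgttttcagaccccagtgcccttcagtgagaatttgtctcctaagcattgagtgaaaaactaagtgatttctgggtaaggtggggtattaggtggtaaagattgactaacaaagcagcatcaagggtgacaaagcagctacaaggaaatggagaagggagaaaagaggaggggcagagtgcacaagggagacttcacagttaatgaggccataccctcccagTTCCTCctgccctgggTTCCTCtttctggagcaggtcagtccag
The C3 window holds TTGCNNAA at -45 to -38, a motif present in 10.8% of all windows. The Cfp window holds GAGGAA on the opposite strand at 7 to 12 and at 23 to 28, both after the start. Among the other windows, Cd59a holds GAGGAA, and Cd55 and Cfd hold neither motif.

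The alternative pathway enzymes were near the detection limit. Cfb, for factor B, had 6 counts in the P2X1-KO-labelled library and 1 count in the WT-labelled library, a ratio of 10.5 with an interval from 1.28 to 484. Cfb overlaps the same-strand model Gm20547, and its neighbours Nelfe and C2 lie 1 and 85 bases away, so single reads at the borders may be shared. C2, the classical pathway counterpart of factor B, had 0 counts in the P2X1-KO-labelled library and 1 count in the WT-labelled library. Cfd, for factor D or adipsin, had 4 counts in the P2X1-KO-labelled library and 8 counts in the WT-labelled library, a ratio of 0.878 (0.193 to 3.28) that spans both directions.

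Cfd lies 2637 bases from Elane, the neutrophil elastase gene, which had 3373 CPM in the P2X1-KO-labelled library and 1872 CPM in the WT-labelled library, while Cfd stayed under 0.6 CPM in both. Adipocyte markers were mixed. Lep, Plin1 and Cidec had 0 counts in both libraries, and Adipoq had 5 counts in the P2X1-KO-labelled library and 1 count in the WT-labelled library. Of 7 list members, Lpl, Pparg and Fabp4 reached a mean of 1 CPM. All 3 were at least 2-fold higher, against 15.5% of all genes at that level. Fabp4 reached it through the P2X1-KO-labelled library alone. Pparg, the transcription factor of fat cell differentiation, had 107 counts in the P2X1-KO-labelled library and 80 counts in the WT-labelled library, a ratio of 2.35, and Fabp4, a fatty acid carrier, had 26 counts in the P2X1-KO-labelled library and 7 counts in the WT-labelled library. The list summed to 289 CPM in the P2X1-KO-labelled library and 10.6 CPM in the WT-labelled library, mostly through Lpl, which macrophages also express and which was 54.7-fold higher (43.7 to 69.5).

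Cd55, the decay-accelerating factor, was hardly detected, with 0 counts in the P2X1-KO-labelled library and 1 count in the WT-labelled library. Its paralog Cd55b had 0 counts in both. No ratio can be given for Cd55 at this depth. Cd59a, which protects cells from the membrane attack pore, had 25 counts (16.2 to 36.9) in the P2X1-KO-labelled library and 113 counts (93.1 to 136) in the WT-labelled library. This was 2.81 CPM in the P2X1-KO-labelled library and 7.25 CPM in the WT-labelled library, 2.57-fold lower (1.66 to 4.15). Its mean of 5.03 CPM was just above the level used for the count of members, reached through the WT-labelled library alone. The paralog Cd59b, 4613 bases away, had 5 counts in the P2X1-KO-labelled library and 8 counts in the WT-labelled library.

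Cr1l, chosen after its values were seen, encodes Crry, a regulator of C3 cleavage on rodent cells. It had 58.5 CPM in the P2X1-KO-labelled library and 36.4 CPM in the WT-labelled library, a ratio of 1.61 (1.43 to 1.82).

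Per kilobase of exon, Cfp was highest in both libraries, at 256 CPM per kilobase in the P2X1-KO-labelled library and 102 in the WT-labelled library. C3 followed, at 61.5 CPM per kilobase in the P2X1-KO-labelled library and 46.9 in the WT-labelled library. The third place differed, being held by C1qb in the P2X1-KO-labelled library, at 28.8 CPM per kilobase, and by Cd59a in the WT-labelled library, with an interval of 3.30 to 4.81. C1qa came next in the P2X1-KO-labelled library at 12.6 CPM per kilobase (10.4 to 15.1), followed by C1qc at 6.88 (5.69 to 8.24), or 11.0 with the length of its coding transcript, which is inside the interval of C1qa. Cfd and Cfb could not be ordered there, since their intervals of 0.133 to 1.25 and 0.0877 to 0.520 overlapped. In the WT-labelled library the intervals of Cfd and the C1q chains all overlapped, between 0.0382 and 1.10 CPM per kilobase, and their order carries no information.

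Beyond the 9 genes, 54 other complement genes of a pathway list were in the table. Of these, 32 had at least 1 count, as did 20541 of all 46095 entries, and 21 reached a mean of 1 CPM. Among the 21, 11 were at least 2-fold higher in the P2X1-KO-labelled library and 1 was at least 2-fold lower, where 15.5% and 14.0% of the 13382 genes at that level were. Their median log2 difference was 1.09, and that of all genes at that level -0.06. Of the 11 higher, 3 reached the level through the P2X1-KO-labelled library alone, Fcna and C3ar1 among them.

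Genes for starting the classical and lectin pathways had 4 of 5 higher and 0 lower, against 15.5% and 14.0% of all genes at 1 CPM. Fcnb, encoding ficolin B, a lectin pathway sensor of myeloid cells, had 2976 counts in the P2X1-KO-labelled library and 441 counts in the WT-labelled library, an 11.8-fold difference (10.7 to 13.1). Fcna, for ficolin A, had 40 counts in the P2X1-KO-labelled library and 6 counts in the WT-labelled library, a ratio of 11.7 (4.93 to 33.8). Colec12, a scavenger receptor with a collectin domain, was 19.4-fold higher (13.4 to 29.0), at 38.6 CPM in the P2X1-KO-labelled library and 1.99 CPM in the WT-labelled library. C1ra, a protease that C1q activates, was 2.59-fold higher (1.39 to 4.90), and its near copy C1rb makes that value uncertain. Below the level, the collectin gene Colec11 had 0 counts in the P2X1-KO-labelled library and 26 counts in the WT-labelled library, at least 4.94-fold lower. The protease gene C1s2, also with near copies, had 2 counts in the P2X1-KO-labelled library and 10 counts in the WT-labelled library, a ratio whose interval spans both directions.

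Counts of 0 were common, since only 20541 of all 46095 entries had a count, so shares of genes at 0 are descriptions. Terminal components were nearly absent, as 5 of 7, including C6, C7 and C9, had 0 counts in both libraries. C8g, the 1 member at the level, overlaps Fbxw5 on the opposite strand. Among soluble regulators, 7 of 11 had 0 counts in both libraries. Of the 2 at the level of 1 CPM, 1 was at least 2-fold higher and 1 lower, against 15.5% and 14.0% of all genes. Cpn1, for the carboxypeptidase that inactivates complement peptides, was 3.58-fold lower (2.34 to 5.70), at 2.81 CPM in the P2X1-KO-labelled library and 10.1 CPM in the WT-labelled library.

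Of 11 receptor genes at the level of 1 CPM, 6 were at least 2-fold higher and 0 lower, against 15.5% and 14.0% of all genes. C3ar1, the receptor for the C3a peptide, had 37 counts in the P2X1-KO-labelled library and 1 count in the WT-labelled library, a ratio of 64.9 (11.0 to 2634). C5ar1, the main receptor for C5a, had 45.5 CPM in the P2X1-KO-labelled library and 6.86 CPM in the WT-labelled library, 6.63-fold higher (5.34 to 8.28). C5ar2 had 4.28 CPM in the P2X1-KO-labelled library and 4.10 CPM in the WT-labelled library, a ratio of 1.04 that was 0.919 with total counts. The subunits of complement receptors that bind C3 fragments were higher, with Itgax at 2.93-fold (2.24 to 3.86), Itgb2 at 2.51-fold (2.42 to 2.59) and Itgam, within 2-fold, at 1.65 (1.58 to 1.71). Itgam is also a gene of the sort. Lrp1, an endocytic receptor on phagocytes, was 8.70-fold higher (8.02 to 9.44), and Cd93, a surface glycoprotein linked to C1q in older work, 6.97-fold higher (5.90 to 8.27). Reads may be shared where annotated genes overlap, on the same strand for Itgam (Gm49368) and on the opposite strand for Fcna (Fcnaos) and Lrp1 (Gm16217).

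**Figure D5:**
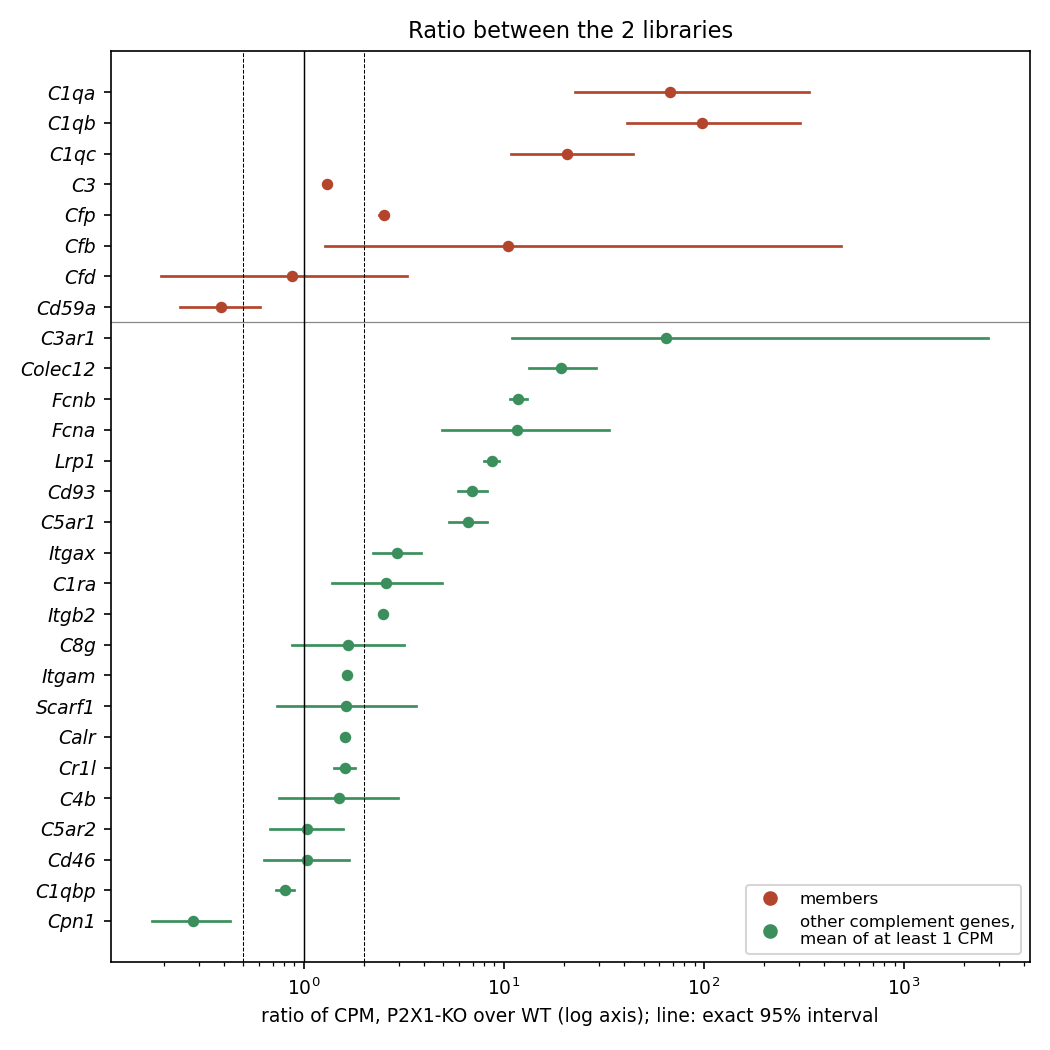
Ratio of CPM in the P2X1-KO-labelled library over the WT-labelled library, on a log axis, for the 8 members with a ratio (red) and other complement genes whose mean was 1 CPM or more (green), with exact 95% intervals as lines, equality as the solid line and 2-fold as dashed lines. Most points lie right of equality, and Cd59a and Cpn1 lie left of the lower dashed line.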

How the data were processed

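RNA-seq libraries of 2 samples, 1 labelled P2X1-KO and 1 labelled WT, were compared. The deposited table holds unnormalized counts of reads, as whole numbers, for each gene symbol and library. Reads were aligned with HISAT2 2.0.4 to mm10, per the submitters' processing notes. The counter, its annotation, strand setting and filters are unstated in the sources used here, so reads of overlapping genes on opposite strands cannot be separated.

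Counts were scaled with TMM (edgeR 4.0.16, R 4.3.3), giving effective sizes of 8882591 (P2X1-KO) and 15591519 (WT), and expressed as CPM. Log2 differences used a pseudocount of 0.5 CPM, which understates those of low genes, and ratios used none. Intervals for ratios and shares are Clopper-Pearson and those for counts exact Poisson (scipy 1.17.1). PCR reads without molecular identifiers are not independent molecules. A gene counted as 2-fold apart by its CPM ratio, unless both counts were at or under 3. The interval step was tested on simulated data. Entries with dates for symbols (27) stayed in the totals, at 0.110% of counts in P2X1-KO and 0.147% in WT. Coordinates, exon lengths and overlaps came from GENCODE M21, on the same assembly, and upstream sequences from RefSeq.

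Named were the 9 members, P2rx1, Itgam, Kit, C3ar1, C5ar1 and Itgb2, and every other complement gene at least 2-fold apart with at least 10 counts in either library. Some genes and 1 motif of the fixed lists are not reported here, though the genes stay in the counts. The genes most like C1q were the 5 nearest in the plane of both libraries. Genes named beside these are neighbours, paralogs, markers, or stand for counts of genes at 0 or level. The members, lists and rules were chosen with earlier results of these data known. Alternatives were other scalings (total counts, upper quartile, DESeq2 1.42.0 median of ratios, total counts without the 20 most abundant genes), pseudocounts of 0.1 and 2 CPM, other levels and folds, and a correction for exon length and GC in 20 bins each.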

Additional observations from a re-analysis of the deposited data

How the results depend on the processing

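Of 101 recomputed values, 78 stayed inside set limits (within counting error for a gene, 0.1 for the median, 1.5 times for a count). No ratio of a member changed direction under another scaling. Counting error is wide for genes with few counts, so large shifts can stay inside it. With pseudocounts of 0.1 and 2 CPM, the log2 difference was 5.49 and 2.78 for C1qa, against 4.29. For Cfb it was 2.24 and 0.37, against 1.06. These 4 values were inside the limits. The all-gene median shifted by -0.18 (log2) with total counts and by -0.20 without the 20 most abundant genes. With total counts, upper quartile, totals without those 20 genes, and the length and GC correction in turn, the log2 difference was 0.21, 0.47, 0.20 and 0.51 for C3 and 1.15, 1.41, 1.13 and 1.02 for Cfp. A pseudocount of 2 CPM gave 3.84 for C1qb and 2.53 for C1qc. The median over members was 2.30 with total counts, 2.32 without the 20 genes, 2.75 and 1.93 with pseudocounts of 0.1 and 2 CPM, 2.18 with the correction, and 1.06 over all 9 members. Members at least 2-fold lower numbered 0 with upper quartile scaling, where Cd59a fell under the level of 5 CPM, and 0 at 4-fold. At a level of 5 CPM, which fewer of the other complement genes reached, 7 were higher and 1 was lower. Of all genes at that level, 12.1% were higher and 10.6% lower. In the P2X1-KO-labelled library, the share of C1qb was 54.3% by raw counts and 54.9% by coding transcript length, a length chosen after seeing the data, and that of C1qc 23.0% and 21.1%. C5ar2 and Cd46 changed direction with scaling. No paired analysis was possible because each group had 1 library, which also left no replicate to leave out. Depth limits Cfb, Cfd, Cd55 and the WT values of the C1q chains.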

Other observations

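The 5 coding genes nearest to the C1q chains in the plane of log2(CPM + 0.5) of both libraries were Hivep2, Trem2, Cped1, Rusc2 and Acvrl1. Nearness over 2 libraries describes levels only. Trem2, a lipid-sensing receptor of macrophages and microglia, had 130 counts in the P2X1-KO-labelled library and 5 counts in the WT-labelled library, a ratio of 45.6 (19.1 to 143). Acvrl1, a receptor of the TGF-beta family known from endothelium, had 151 counts in the P2X1-KO-labelled library and 9 counts in the WT-labelled library, a ratio of 29.5 (15.1 to 65.7). Hivep2, a zinc finger transcription factor gene, had 145 counts in the P2X1-KO-labelled library and 8 counts in the WT-labelled library. Cped1 and Rusc2 had 128 counts each in the P2X1-KO-labelled library and 5 and 7 counts in the WT-labelled library.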
